A study of Saccharomyces cerevisiae with 9 samples.

Results

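The Pol I profile of mid log cells was compared with that of early log cells across the yeast 35S ribosomal DNA repeat. The comparison rests on 6 of the 9 libraries of the study, the 3 mid log and the 3 early log replicates, and all 6858 positions of the repeat were used, grouped by the region that the deposited table assigns to each position. Mid log replicate 1 is also treated apart, because in the spacers its level lay close to early log. Since it was singled out by that level, spacer values given without it are descriptions that this choice favours, not tests. Both groups were cultures of the same haploid Saccharomyces cerevisiae strain grown in YPD at 30 °C, harvested at different cell densities, with no drug or mutation that separates them. Its second-largest Pol I subunit is tagged by RPA135-(HA)3-(His)7::TRP1 in mid log and early log alike, and the MATa strain also carries can1-100 and his3-11 with a double mutation of leu2, the allele trp1-1 and, besides, ura3-1 and ade2-1. The design text gives 3 biological replicates per subphase. Because every culture is of 1 tagged strain, an effect of the tag is shared by both groups.

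RNA polymerase I (Pol I) transcribes this gene as 1 long precursor that holds 18S, 5.8S and 25S rRNA. The precursor also holds external spacers at its ends (ETS 1 and ETS 2) and internal spacers between the rRNAs (ITS 1 and ITS 2), which are cut out and degraded while ribosomes are assembled. Native elongating transcript sequencing (NET-seq) pulls down the polymerase and sequences the RNA held in it, so that the last base of the RNA marks where the polymerase stood. Mature rRNA is abundant and comes down with it, so reads in 18S, 5.8S and 25S mix nascent and mature RNA, while the spacers, which are short-lived, carry less of this background.

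Values are RPM, the reads at a position scaled so that those from the start of the repeat to its terminator sum to 1000000 in each library, counted by the last RNA base. An RPM is therefore a share of a library and not an amount of polymerase per cell. In bulk cultures, fewer engaged polymerases and less RNA recovered from each cannot be told apart. The libraries held 6066590 to 7307420 reads on the repeat in mid log and 350940 to 4656130 in early log. The upper limit of 3 reads that a count of 0 allows ranged from 0.411 to 8.55 RPM. The mid log libraries were sequenced together in a run without any early log library, so that subphase and run cannot be told apart in any value here. At 13 positions all 6 libraries were listed at 0, and 9 of these lay within 2 nt of a mature rRNA 3′ end.

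The sequences of 1 stretch and 8 positions on which the results turn are shown first, as RNA, 5′ to 3′, from the base column of the deposited table. They lie on the minus strand of chromosome XII in the R64 assembly, where the repeat is annotated as RDN37-2 (chrXII:460712-467569), and all of its bases matched that assembly. The first line is the 50-nt stretch of ETS 1 with the largest fall in mid log, positions 601 to 650 (chrXII:466920-466969), and its capitals mark the 36 positions that passed the test as lower in mid log. In the other lines the capital is the RNA 3′ end at a named position and the 29 bases around it are in lower case. The lines give position 81 in ETS 1 (chrXII:467475-467504), 1232 in 18S (chrXII:466324-466353), 1767 in 18S (chrXII:465789-465818), 2503 in ITS 1 (chrXII:465053-465082), 2970 in 5.8S (chrXII:464586-464615), 3221 in ITS 2 (chrXII:464335-464364), 6475 in 25S (chrXII:461081-461110) and 6650 in ETS 2 (chrXII:460906-460935).
ETS 1, 601 to 650: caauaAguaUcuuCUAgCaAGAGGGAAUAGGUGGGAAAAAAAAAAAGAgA
position 81: cguuauguuuuuguaAauggccucgucaaa
position 1232: uacaauguaaauaccUuaacgaggaacaau
position 1767: uguuuuuuuaaugacCcacucggcaccuua
position 2503: ggaaggaucauuaaaGaaauuuaauaauuu
position 2970: cgaaucuuugaacgcAcauugcgccccuug
position 3221: acguuaucgauaagaAgagagcgucuaggc
position 6475: aaccauagcaggcuaGcaacggugcacuug
position 6650: uugucugauuuguuuUuuauuucuuucuaa

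In the spacers, away from the mature rRNA ends, mid log replicates 2 and 3 held a smaller share of the reads than every early log library, and mid log replicate 1 did not. With the 20 nt on each side of every mature end left out, the 1384 remaining spacer positions held 4.85%, 1.22% and 1.02% of the reads in mid log replicates 1, 2 and 3, against 3.54%, 6.70% and 5.72% in early log replicates 1, 2 and 3. Mid log replicate 1 lay inside the early log range and the other 2 mid log libraries lay below it, so that the groups overlapped. This overlap rested on early log replicate 1, since mid log replicate 1 lay below early log replicates 2 and 3. Early log replicate 1 was sequenced in a different run from early log replicates 2 and 3. The log2 change was -1.50 over all 6 libraries (exact two-sided permutation test, p = 0.20, where 0.10 is the smallest p that 3 against 3 allows). Without mid log replicate 1 the early log share was 4.62-fold that of mid log (log2 change -2.21), as a description. The widest Wilson 95% interval on a regional share, that of 25S in early log replicate 3, spanned 0.164 percentage points to either side, and it covers counting error only.

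**Figure D1:**
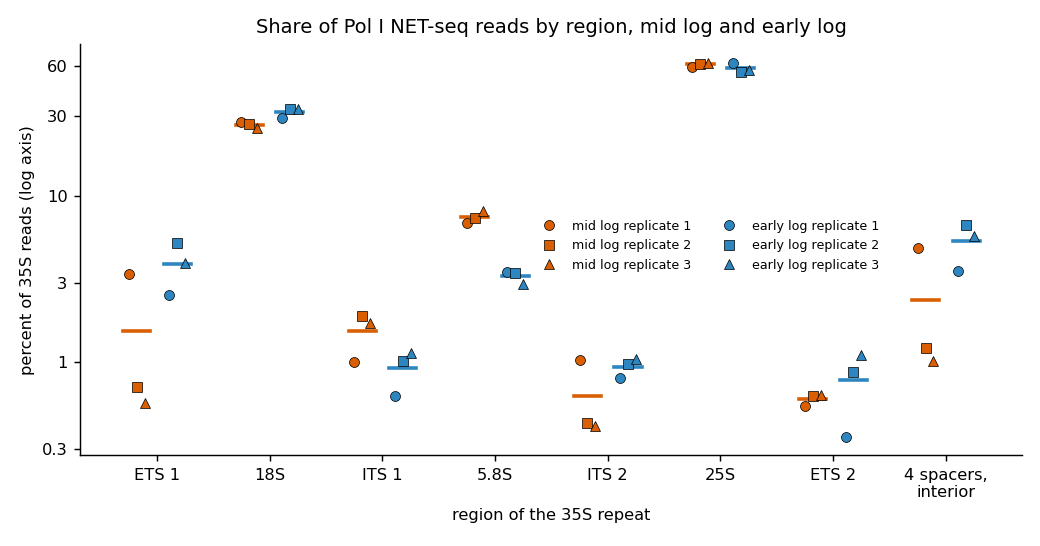
Percent of 35S reads (log axis) in each region and in the 4 spacers without the 20 nt at each mature end, for every library, with mid log left of early log; points are libraries and bars are means of 3. 5.8S (6.86% to 8.06% in mid log, 2.96% to 3.45% in early log) and 18S do not overlap, while in ETS 1, ITS 2 and the spacer interior mid log replicate 1 sits among the early log libraries.

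The 4 spacers differed in how far mid log lay from early log. ETS 1, the first spacer to be made, held 3.36%, 0.702% and 0.565% of the reads in mid log, against 2.53%, 5.18% and 3.92% in early log. Its log2 change was -1.76 (exact p = 0.20, adjusted over the 7 regions 0.35) and, as a description, -2.56 without mid log replicate 1. ITS 2, which separates 5.8S from 25S, held 1.02%, 0.430% and 0.414% in mid log, against 0.798%, 0.975% and 1.03% in early log. In both spacers mid log replicate 1 stood within the early log range and the other 2 mid log libraries stood below it. Among spacer interior reads alone, ITS 2 made up 13.7% ± 0.745 in mid log and 10.2% ± 1.57 in early log (SD, n = 3 each) without overlap (exact p = 0.10). ETS 1 made up 60.5% ± 7.44 in mid log and 72.1% ± 4.50 in early log, with overlap (exact p = 0.20).

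Along the spacers the levels were taken in 50-nt windows and tested with limma on log2(RPM + 1) over all 137 windows of the repeat. With all 6 libraries, 24 windows passed an adjusted p of 0.05 (17.5% of those tested), and only 2 of the 30 spacer windows were among them. Without mid log replicate 1, which was set apart for its spacer level, 53 windows passed (38.7%), among them 27 of the 30 spacer windows, 26 lower and 1 higher in mid log (30.7% lower and 8.03% higher over all windows), an increase in the spacers that follows from how that library was chosen. Mid log replicates 2 and 3 lay below all early log libraries in 27 of the 30 spacer windows. In the same windows mid log replicate 1 lay below the early log range in 6, within it in 19 and above it in 5.

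**Figure D2:**
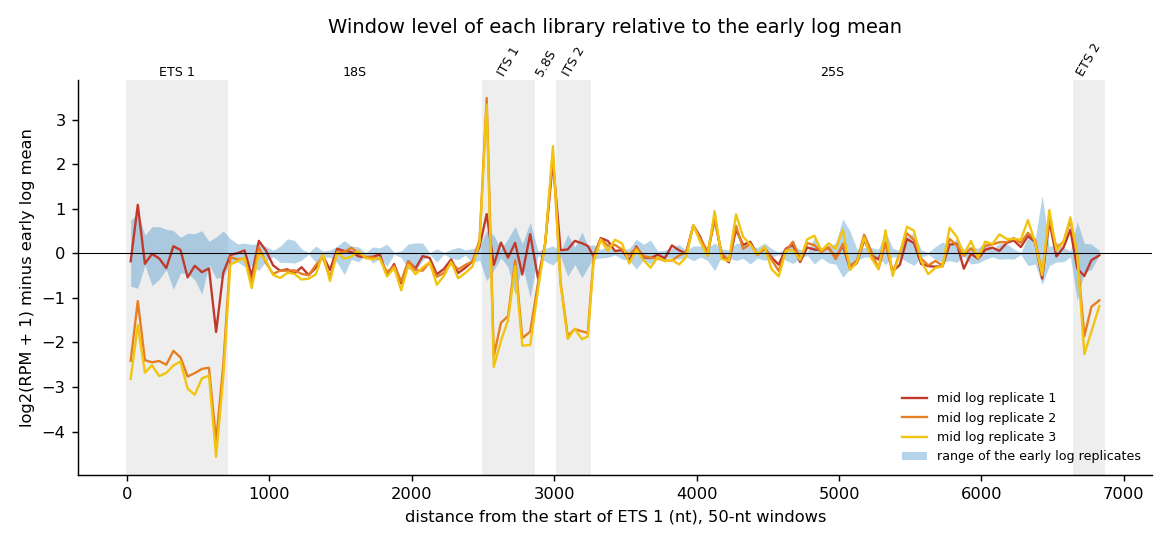
Level of each mid log library in 50-nt windows along the repeat, as log2(RPM + 1) minus the early log mean, with the range of the early log replicates as a band and the spacers shaded. Mid log replicates 2 and 3 run below the band through most spacer windows and all 3 mid log libraries run together in 18S, 5.8S and 25S.

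In ETS 1, the level of mid log replicate 1 lay within the early log range, but the placing of its reads was closer to the other mid log libraries. The 14 windows of ETS 1 were expressed as a percent of each library's own ETS 1 reads, which removes the level. Replicate 1 of mid log then differed from mid log replicates 2 and 3 in the placing of 3.35% to 4.70% of the reads (sum of the differences over windows, halved), and from the early log libraries in 11.4% to 18.3%. Mid log replicates 2 and 3 differed from early log by 11.4% to 17.8%, and early log libraries among themselves by 8.81% to 10.4%. In the other spacers, with the windows next to mature ends kept, these distances ran the other way. In ITS 1, mid log replicate 1 differed from mid log replicates 2 and 3 by 57.6% to 57.9% and from early log by 7.93% to 21.4%. In ITS 2 it differed from them by 20.8% and from early log by 2.20% to 7.65%, and in ETS 2 from them by 7.05% to 8.02% and from early log by 0.632% to 6.37%. The ratio of reads in the last 350 positions of ETS 1 to those in its first 350 was 0.509, 0.490 and 0.512 in mid log, against 0.842, 0.713 and 0.953 in early log. The 2 groups did not overlap (log2 change -0.72, exact p = 0.10), and they did not overlap either after the window with the largest fall was left out (log2 change -0.50, exact p = 0.10, a setting chosen after seeing the data).

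The largest differences in this share lay near both ends of ETS 1. The window at 51 to 100 held 19.2%, 20.6% and 17.6% of the ETS 1 reads in mid log, against 6.98%, 10.9% and 7.19% in early log. The window at 601 to 650 held 3.15%, 2.77% and 2.68% in mid log, against 9.68%, 7.95% and 11.9% in early log. Mid log replicate 1 sided with the other mid log libraries at both ends. Counted over the repeat, 53 of 137 windows (38.7%) did not overlap between the groups in their share of their own region's reads (mid log lower at 22.6% and higher at 16.1%), and 4 of the 14 ETS 1 windows did not (1 higher, 3 lower). Such windows were thus no more frequent in ETS 1 than over the repeat.

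**Figure D3:**
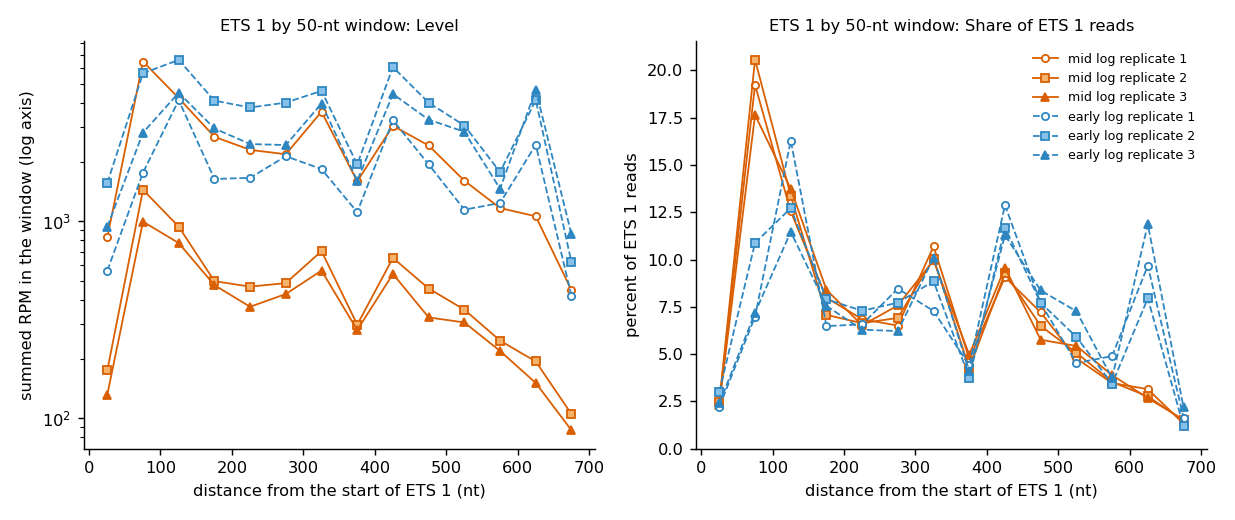
ETS 1 in 50-nt windows by distance from its start, for every library (solid lines mid log, dashed lines early log): summed RPM on a log axis on the left and percent of the library's ETS 1 reads on the right. On the left, mid log replicate 1 lies within the early log range in 10 of 14 windows and below it at 601 to 650 nt. On the right, its line joins the other mid log libraries, with 19.2% of its ETS 1 reads between 51 and 100 nt.

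The window at 601 to 650 was the only ETS 1 window to pass with all 6 libraries. This part of ETS 1 contains A0, a site where the precursor is cut early in processing. The window held 1060, 194 and 151 RPM in mid log, against 2447, 4120 and 4649 RPM in early log, and every mid log library lay below every early log library. It fell by 3.51 on the log2 scale in mid log (SE 0.79, limma adjusted p = 0.0300), and by 4.39, as a description, without mid log replicate 1. By edgeR on reads no ETS 1 window passed and 1 did at an unadjusted p under 0.05, and without mid log replicate 2 or 3 or early log replicate 2 or 3 no spacer window passed by limma (2 to 3 of 30 at an unadjusted p under 0.05). Relative to the mean of its 2 neighbouring windows, its level was 1.31, 1.10 and 0.985 in mid log, against 2.96, 3.44 and 4.01 in early log. The peak over its surroundings seen in early log was thus smaller or missing in every mid log library. The window was named for its large fall, which favours a lower ratio to its neighbours. Over the repeat, 32 of 123 windows (26%) had a lower ratio in mid log without overlap.

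Single positions were tested with the same limma fit where they averaged 1 RPM or more over the 6 libraries. Of 6748 such positions 1293 passed (19.2%), and mid log was above early log at 437 (6.48%) and below it at 856 (12.7%). This split moved with the scaling, to 653 higher and 469 lower once the median log ratio of each library was set to 0, and to 622 higher (9.22%) and 343 lower (5.08%) by edgeR on reads. In the spacers it did not turn under either, with 10 higher against 153 lower and 10 higher against 84 lower. Scaled instead to the reads of the spacer interior, 109 spacer positions were higher and 67 lower, and the median of all positions lay at 1.20 on the log2 scale. In the window at 601 to 650, 36 of 50 positions fell and none rose, with log2 changes between -5.35 and -2.20. Position 610 had 48.1, 3.83 and 3.06 RPM in mid log, against 179, 488 and 750 RPM in early log, and fell by 5.35 on the log2 scale (SE 0.93, limma adjusted p = 0.0130). The groups did not overlap at position 610, as its naming required, although mid log replicate 1 lay far above the other mid log libraries. An unbroken run of 11 A at 636 to 646 fell at each of its positions, with 325, 71.3 and 53.3 RPM in all in mid log, against 754, 1048 and 1360 RPM in early log.

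Upstream in ETS 1 the highest position did not pass and its neighbour passed as higher in mid log. Position 80 had 1436, 366 and 216 RPM in mid log, against 126, 1206 and 447 RPM in early log, and its groups overlapped (limma adjusted p = 0.85). Position 81, the next base, had 74.7, 25.3 and 20.2 RPM in mid log, against 4.22, 9.67 and 5.70 RPM in early log. It was the only position of ETS 1 that rose (log2 change 2.27, SE 0.58, limma adjusted p = 0.0318), against 123 of 683 that fell. Without mid log replicate 1, 432 of 682 fell and 1 rose, beside 22.0% lower and 6.54% higher over all positions in that fit, an excess that the choice of the library left out sets. The highest positions that fell elsewhere in ETS 1, picked after their values were seen, were 232 with 293, 41.9 and 26.5 RPM in mid log, against 938, 1126 and 510 RPM in early log, and 102 with 377, 73.2 and 52.6 RPM in mid log, against 1070, 1091 and 405 RPM in early log.

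ITS 1, which lies between 18S and 5.8S, held a rise at its start and falls in its interior. Its first 50 nt held 2602, 15817 and 14298 RPM in mid log, against 923, 2022 and 1508 RPM in early log, and rose by 2.57 on the log2 scale (SE 0.70, limma adjusted p = 0.0466). The 3 positions from 2503 to 2505, 3 to 5 nt past the end of 18S, held 93.7% and 94.0% of this window in mid log replicates 2 and 3 and 61.4% in replicate 1. Position 2503 alone had 1031, 9967 and 9073 RPM in mid log, against 257, 713 and 177 RPM in early log (log2 change 3.83, SE 0.88, limma adjusted p = 0.0249). Here mid log replicate 1 was the lowest mid log library, yet above all early log libraries. Nascent and processed RNA ending this close to a mature end cannot be told apart by their reads.

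Past its first 20 nt and before its last 20 nt, ITS 1 held 0.740%, 0.312% and 0.275% of the reads in mid log, against 0.535%, 0.814% and 1.01% in early log (log2 change -0.93, exact p = 0.20). Over the whole spacer, 20 of 359 positions fell and 3 rose, fewer than the 12.7% lower and 6.48% higher over the repeat, and these 3 were 2503 to 2505. The largest fall among positions averaging 10 RPM or more was at 2569, with 49.0, 11.4 and 5.99 RPM in mid log, against 124, 122 and 165 RPM in early log. The window at 2701 to 2750, in the part of ITS 1 that contains the cleavage site A2, stood above its neighbours in both groups but for early log replicate 1. It held 1956, 1491 and 1361 RPM in mid log, against 871, 2093 and 2525 RPM in early log (log2 change -0.07, limma adjusted p = 0.90). Relative to its neighbours its level was 2.04, 4.01 and 3.99 in mid log, against 0.906, 1.77 and 1.79 in early log, so that it stood out more in every mid log library. Its highest position, 2710, chosen after its values were seen, had 436, 567 and 541 RPM in mid log, against 82.1, 337 and 430 RPM in early log, which did not pass (limma adjusted p = 0.16). Over the repeat, 46.3% of windows did not overlap in this ratio, 20.3% with a higher ratio in mid log, and in the spacers 11 of 22 did not, 5 of them with a higher ratio.

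In ITS 2, 8 of 231 positions passed, all lower in mid log, a share below the 12.7% lower over the repeat. Without mid log replicate 1, 81 of 230 passed, again all lower, beside 22.0% lower over the repeat, which is the same kind of description. Position 3221 had 48.3, 9.31 and 5.57 RPM in mid log, against 144, 131 and 117 RPM in early log, and fell by 3.13 on the log2 scale (SE 0.66, limma adjusted p = 0.0200). Its groups did not overlap, as its naming required. The highest ITS 2 position, 3023, 4 nt past the end of 5.8S, had 838, 1064 and 999 RPM in mid log, against 618, 681 and 624 RPM in early log, which did not overlap and did not pass (limma adjusted p = 0.069). At both positions mid log replicate 1 was nearest to early log.

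ETS 2, which follows 25S and ends transcription at the terminator T1, held a rise and a fall within its first 15 nt. Position 6650, 3 nt past the end of 25S, had 1655, 2298 and 2398 RPM in mid log, against 679, 409 and 599 RPM in early log (log2 change 1.92, SE 0.28, limma adjusted p = 0.0097). The 5 positions from 6650 to 6654 all rose. Position 6662, 15 nt past the end and chosen after its values were seen, had 380, 344 and 263 RPM in mid log, against 781, 2718 and 3483 RPM in early log (log2 change -2.58, SE 0.51, limma adjusted p = 0.0168). All 3 mid log libraries lay on the same side of early log at both positions. Position 6662 is the base just before a stretch of 35 positions, 6663 to 6697, annotated as Rnt1 cleaved residue. Rnt1 is the endonuclease that cuts the RNA in ETS 2. Nascent and processed RNA ending at 6662 cannot be told apart by their reads. The annotated stretch held 768, 368 and 278 RPM in all in mid log, against 491, 999 and 1123 RPM in early log, with overlap. At T1 itself there were 45.7, 31.2 and 23.5 RPM in mid log, against 73.6, 142 and 151 RPM in early log, without overlap (log2 change -1.82, SE 0.36, limma adjusted p = 0.0173). Past T1 the 119 remaining positions held 181, 80.7 and 61.9 RPM in mid log, against 180, 234 and 214 RPM in early log. Position 6716, between the Rnt1 residues and T1, had the largest fall of ETS 2 among positions averaging 10 RPM or more, with 5.61, 2.46 and 1.25 RPM in mid log, against 45.9, 24.9 and 34.2 RPM in early log.

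**Figure D4:**
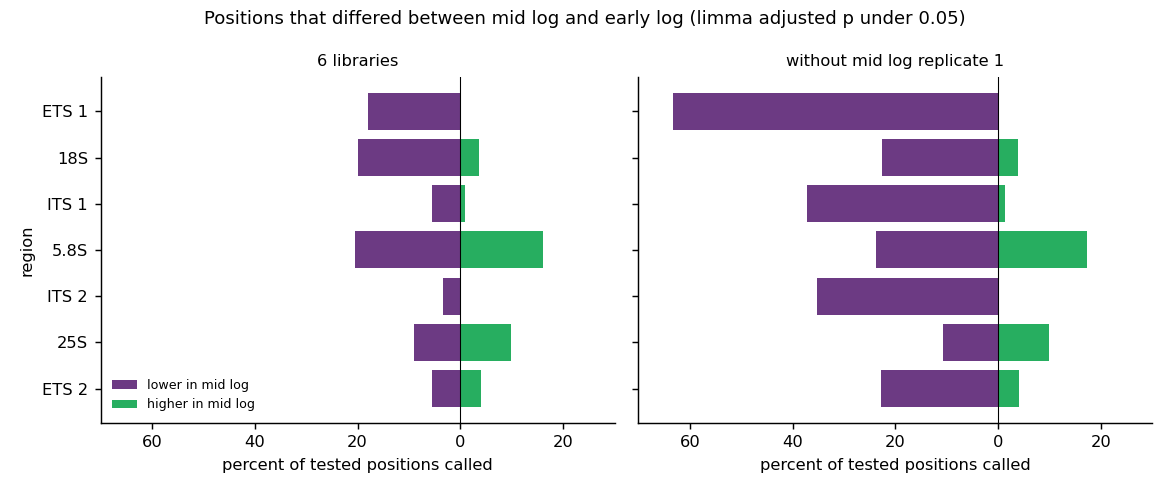
Percent of tested positions in each region that passed as lower (left of 0) or higher (right of 0) in mid log, with all 6 libraries and without mid log replicate 1. In ETS 1, 123 of 683 positions were lower with all 6 libraries and 432 of 682 without mid log replicate 1, while the mature regions changed little between the fits.

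The counts with and without mid log replicate 1 describe where that library, set apart for its spacer level, stood. In the spacers 167 of 1399 positions (11.9%) passed with all 6 libraries (9 higher, 158 lower), fewer than the 19.2% over the repeat. Without mid log replicate 1, 685 of 1393 passed (11 higher, 674 lower), where 28.5% of all positions passed. In the mature regions the counts were 1126 of 5349 and 1237 of 5349, and 1019 positions were called in both fits. Of the 674 spacer positions called lower without mid log replicate 1, that library itself lay below the early log range at 41.2% and within it at 51.6%. Of the 807 mature positions called lower, it lay below early log at 88.7%, and of the 430 called higher, it lay above at 97.2%. The groups did not overlap at 23.8% of spacer positions with all 6 libraries, against 40.7% over the repeat. Without mid log replicate 1 they did not overlap at 75.6% of spacer positions, against 60.8% over the repeat, and 74.2% of spacer positions were lower without overlap, against 43.2% over the repeat. By rank over mature positions away from the ends, Spearman's rho of mid log replicate 1 was 0.948 to 0.965 with the other mid log libraries and 0.799 to 0.873 with early log. Over spacer interior positions rho was 0.913 to 0.934 with the other mid log libraries and 0.772 to 0.892 with early log. These correlations run over positions, which are not replicates, and the positions of a library share its depth.

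The 18S rRNA, the RNA of the small subunit, held 27.6%, 27.1% and 25.6% of the reads in mid log, against 29.4%, 33.0% and 33.1% in early log, without overlap (log2 change -0.25, exact p = 0.10, adjusted over the 7 regions 0.35). Of its positions, 358 of 1798 fell and 66 rose, beside 12.7% lower and 6.48% higher over the repeat. Of its 36 windows 11 passed, all lower in mid log, beside 11.7% lower over the repeat. With the median log ratio of each library set to 0, which puts the median log2 change of all positions at -0.02 in place of -0.27, 185 fell and 108 rose. Scaled to the spacer interior, 83 positions of 18S were higher, 0 were lower (421 had an unadjusted p under 0.05) and 0 of its windows passed (8 at an unadjusted p under 0.05), so that the direction of this imbalance depends on the scaling. The largest fall among its windows was at 1901 to 1950, with 6616, 6823 and 5930 RPM in mid log, against 10858, 9874 and 10979 RPM in early log (log2 change -0.71, SE 0.083, limma adjusted p = 0.0026). Position 1767 rose, with 888, 707 and 709 RPM in mid log, against 60.3, 165 and 180 RPM in early log (log2 change 2.64, SE 0.38, limma adjusted p = 0.0093). Position 1232 had 93.97, 78.28 and 64.04 RPM in mid log, against 1248, 175 and 539 RPM in early log, where the early log libraries themselves differed widely.

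The 5.8S rRNA, the shortest rRNA of the precursor, held 6.86%, 7.38% and 8.06% of the reads in mid log, against 3.45%, 3.45% and 2.96% in early log, without overlap (log2 change 1.18, exact p = 0.10, adjusted over the 7 regions 0.35). A single base carried most of this. Position 2970 had 32395, 37028 and 43421 RPM in mid log, against 791, 2553 and 1360 RPM in early log (log2 change 4.74, SE 0.83, limma adjusted p = 0.0130). It took 47.2% to 53.9% of the 5.8S reads in mid log and 2.29% to 7.41% in early log, while the base before it held at most 344 RPM in any library. Without this position 5.8S held 3.62%, 3.67% and 3.72% of the reads in mid log, against 3.37%, 3.19% and 2.82% in early log. The 10 highest positions of the repeat include 2970, 3014 and 3015 in 5.8S. Without them it held 3.06%, 3.05% and 3.00% in mid log, against 3.22%, 3.05% and 2.67% in early log. These overlapped (log2 change 0.03, exact p = 0.80). The window at the other end of 5.8S, 2862 to 2911, fell by 0.67 on the log2 scale (SE 0.079, limma adjusted p = 0.0026), with 8098, 7656 and 6873 RPM in mid log, against 11643, 12446 and 11874 RPM in early log. Position 2874 in that window had 22.9, 18.5 and 10.9 RPM in mid log, against 50.7, 62.5 and 85.5 RPM in early log.

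The 25S rRNA, the large subunit RNA, held 59.6%, 61.9% and 63.0% of the reads in mid log, against 62.8%, 55.5% and 56.7% in early log, and the groups overlapped (log2 change 0.08, exact p = 0.30). Early log replicate 1 held 33571 RPM at position 6411, where every other library of the comparison held at most 667 RPM. Of the 25S positions, 337 of 3395 rose and 308 fell, beside 6.48% higher and 12.7% lower over the repeat. This balance became 499 higher and 113 lower with the median log ratios set to 0, and 372 higher and 2 lower when scaled to the spacer interior. Position 6475 had 1869, 2108 and 2670 RPM in mid log, against 153, 219 and 200 RPM in early log (log2 change 3.53, SE 0.22, limma adjusted p = 0.0011), the lowest adjusted p among the named positions. Around it, the window at 6452 to 6501 rose by 0.83 on the log2 scale (SE 0.13, limma adjusted p = 0.0086), with 10108, 10550 and 12005 RPM in mid log, against 6727, 6764 and 5053 RPM in early log. The window at 4102 to 4151 rose by 0.83 (SE 0.18, limma adjusted p = 0.0300), with 7159, 6701 and 7799 RPM in mid log, against 4755, 4506 and 3084 RPM in early log. Position 3904, the largest fall of 25S among named positions that passed, had 23.1, 3.56 and 3.76 RPM in mid log, against 56.7, 56.3 and 45.6 RPM in early log, with mid log replicate 1 nearest to early log as in the spacers.

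**Figure D5:**
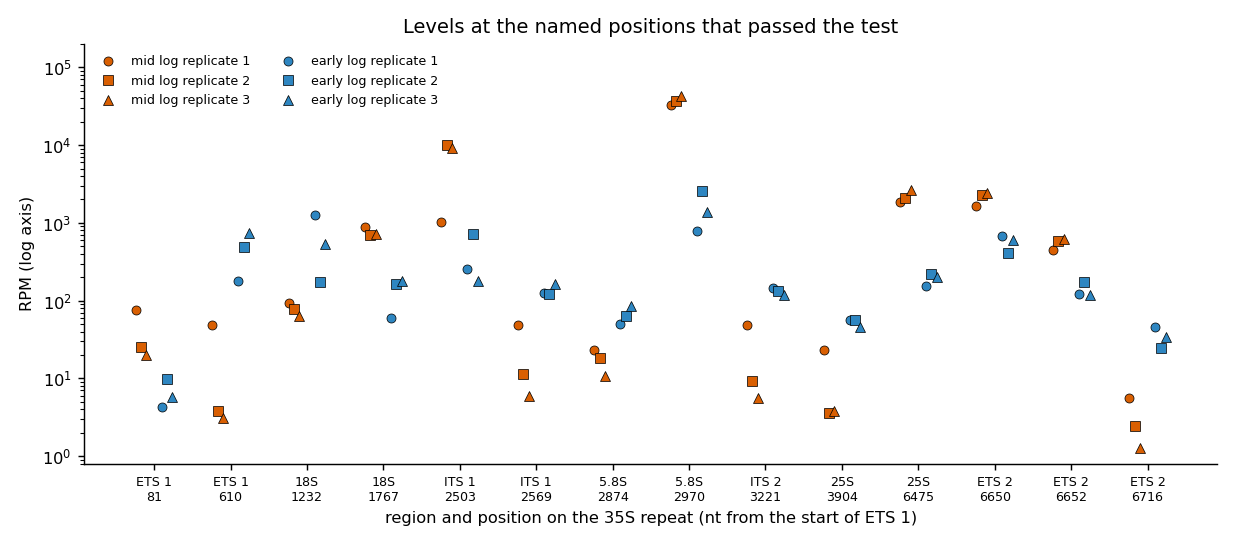
RPM (log axis) of every library at the 14 named positions that passed the test, with mid log left of early log and regions in order along the repeat. At each position the 3 mid log points lie on one side of the 3 early log points, which the rule for naming rises and falls requires. At 2970 the mid log points reach 43421 RPM, against at most 2553 RPM in early log.

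Next to mature ends the mid log libraries held more reads. The 240 positions within 20 nt of an end of 18S, 5.8S or 25S held 4.88%, 6.67% and 6.57% of the reads in mid log, against 3.59%, 3.98% and 3.92% in early log, without overlap (log2 change 0.64, exact p = 0.10). On the spacer side of these ends the groups overlapped, with 1.08%, 2.43% and 2.29% in mid log, against 0.760%, 1.33% and 1.47% in early log. The spacers differed here, since ITS 1 had 0.262%, 1.58% and 1.43% there in mid log, against 0.0848%, 0.195% and 0.123% in early log, and ETS 1 had at most 0.0181% in any library.

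The base at the RNA 3′ end differed in the same direction for C inside the spacers and inside the mature regions. For U the directions were opposite. In the spacer interior, C was the last base of 13.87%, 14.95% and 14.87% of reads in mid log, against 11.70%, 12.13% and 10.69% in early log (exact p = 0.10), while 16.0% of these positions are C. G was the last base of 27.9%, 24.5% and 24.2% in mid log, against 30.4%, 29.1% and 29.9% in early log (exact p = 0.10). Neither base overlapped between the groups, and mid log replicate 1 lay nearest to early log for both. Both directions turned when the positions next to mature ends were kept, with log2 changes of -0.42 for C and 0.32 for G. Away from the ends of the mature regions, C was the last base of 19.5%, 20.6% and 21.1% of reads in mid log, against 18.5%, 17.2% and 15.3% in early log. U was the last base of 23.2%, 22.5% and 21.9% of spacer interior reads in mid log, against 18.3%, 21.5% and 21.5% in early log. In the mature interior U ran the other way, at 22.7%, 22.5% and 21.9% in mid log, against 26.7%, 24.2% and 23.0% in early log. U did not overlap between the groups in either part. Its spacer direction also turned when the positions next to mature ends were kept. Of the C positions tested in the mature regions, 12.7% rose and 4.97% fell, against 7.88% and 20.1% of A positions. C thus made up 31.1% of the mature positions that rose and 7.45% of those that fell, with 19.6% of those tested. Among the 158 spacer positions that fell, 43.7% were A and 32.3% were G, with 28.6% and 23.4% of those tested. The A share of spacer interior reads itself overlapped, at 35.1%, 38.1% and 39.1% in mid log, against 39.6%, 37.3% and 37.9% in early log. Without mid log replicate 1, as a description, A made up 33.7% of the falls and G 27.6%, with 28.5% and 23.4% of those tested.

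The calls at single positions rested on mid log replicates 2 and 3 together. Without mid log replicate 2, 3 positions passed over the repeat (1612 at an unadjusted p under 0.05), and without mid log replicate 3, 10 passed. Of the 14 named positions that passed with all 6 libraries, only 6475 passed without mid log replicate 2, and only 6475 and 6652 without mid log replicate 3. With the sequencing run as a random block only 1767, 6475, 6650 and 6652 passed, and 610, 2503 and 2970 were among those that did not. Since mid log lies in a run of its own, the run block cannot separate subphase from run. With the replicate number as a block, 10 of the 14 passed. All 14 passed without mid log replicate 1, a fit that also served to name the spacer falls. All 14 kept their direction without any 1 library. Groups that do not overlap keep their order when 1 library is left out, so this was set by the lack of overlap. Without early log replicate 1, 2 or 3 the counts over the repeat were 1718, 570 and 540.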

How the data were processed

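NET-seq reads of Pol I were trimmed with cutadapt 3.4, aligned with STAR 2.7.3a to R64 and counted with SAMtools 1.12 and bedtools 2.28.0, per the submitters' processing notes. The counted base of each read was its first, which marks the RNA 3′ end. The deposited values are RPM, for which the authors divided each library's reads at a position by its sum from position 1 to T1 at position 6739. In 99.9% to 100% of values the RPM was a whole multiple of the value of 1 read (tolerance 0.02 reads), so reads were recovered, and edgeR on them called 965 positions. The ratio and p-value columns that the authors deposited hold their own comparison of the subphases and were not used. Groups came from the sample labels, and each library's sequencing run from the study's methods.

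Regional shares were compared by an exact two-sided permutation test, with Benjamini-Hochberg adjustment over the 7 regions. Positions averaging 1 RPM or more and windows of 50 nt were tested on log2(RPM + 1) with limma 3.58.1 (trend, Benjamini-Hochberg adjusted p under 0.05) in R 4.3.3. Fold changes on this scale understate those of low positions. edgeR 4.0.16 (quasi-likelihood) and DESeq2 1.42.0 on recovered reads, other pseudocounts, filters, scalings and window sizes, and fits without each library were alternatives. The fitting was tested on simulated data. Tables and figures were made with Python 3.11.15, pandas 2.3.3 and matplotlib 3.10.9.

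Named positions were the highest of each region, and the largest rise and fall of each region among those that passed, averaged at least 10 RPM and did not overlap, with the largest spacer falls without mid log replicate 1. Named windows were the 3 largest rises and falls among those that passed in the spacers and in the mature regions. Positions 102, 232, 2710 and 6662, the neighbours of 2503 and 6650, and the window at 2701 to 2750 lie outside this rule and were chosen after their values were seen. The members and lists were chosen with earlier results of these data known.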

Additional observations from a re-analysis of the deposited data

How the results depend on the processing

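Position and window counts depended on single libraries and on how the spread was modelled. Over the repeat, 1293 positions passed, and 3 to 1922 did when 1 library was left out. The count was 660 when scaled to the spacer interior, 2144 with all 3 subphases in the fit, 364 with the replicate block and 99 with the sequencing run as a random block. In the spacers the 167 positions became 0 to 685 with 1 library left out (0 without mid log replicate 2, where 216 had an unadjusted p under 0.05), 345 with all 3 subphases, 39 with the replicate block, 4 with the run block and 94 by edgeR. The 24 windows became 4 to 53 with 1 library left out, 6 when scaled to the spacer interior, 48 with all 3 subphases, 5 with the replicate block, 8 with the run block, 14 by edgeR and 55 at 25 nt. The 2 spacer windows became 0 to 27 with 1 library left out, 12 with all 3 subphases, 5 at 25 nt and 0 with the run block (3 at an unadjusted p under 0.05), and 1 each with median log ratios set to 0, without the 10 highest positions, with the replicate block, by edgeR and at 100 nt. Replicate numbers did not pair the libraries, since the deviations of same-numbered libraries correlated at -0.47, -0.32 and -0.23. The ITS 1 share turned to -0.90 (log2) without the 20 nt at mature ends and to -1.28 by its median position, the 5.8S and 25S shares to -0.12 and -0.015 by their median positions, and the ETS 2 share ranged from -0.71 to 0.10 with 1 library left out. With no positions left out at mature ends, the ITS 2 share of spacer reads turned to -0.12 and the changes of C, G and U to -0.42, 0.32 and -0.015, and that of A ranged from -0.065 to 0.012 with 1 library left out. Position 80 ranged from -0.60 to 1.03 and position 2498, the highest of 18S, from -0.30 to 0.032 with 1 library left out, and position 2498 was at 0.13 with median log ratios set to 0, 1.38 scaled to the spacer interior, 0.14 by edgeR and 0.11 by DESeq2. The cause of these turns was not tested. The other regional shares and the ratio within ETS 1 kept their direction under every alternative run on them. Scaling to the spacer interior was not among these, and under it 18S had 83 positions higher and 0 lower. Early log replicate 3 limits the lowest values, since 3 of its reads are 8.55 RPM.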
